A study of Homo sapiens with 18 samples.

Results

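The step from hematopoietic progenitors to mature blood cells was followed in WT cells by setting the 3 WT libraries of D30 against the 3 WT libraries of D16. All 35168 genes of the deposited tables were joined, and the 14666 that passed a filter on low counts were tested, in 6 of the series' 18 libraries. The series examined blood formation from H1, an established human embryonic stem cell line, in WT cells and in cells mutated in USB1, an exonuclease that trims the ends of small RNAs, at D0, D16 and D30. The mutant and D0 libraries did not enter the test.

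The groups shared the line, the WT genotype and the library kit, and no drug or transgene was given in their labels. The WT D16 libraries were labelled hematopoietic progenitors, and by the study's methods came from sorted CD34+CD43- hemogenic endothelium that was aggregated and cultured in low oxygen with a mix of cytokines and growth factors that included IL-3, SCF, IL-6, IL-11, IGF1, EPO, VEGF, bFGF, BMP4, FLT3L and SHH. The study describes the sequenced D16 population as CD34+ and CD45+, so that CD34 and PTPRC (CD45) took part in how the D16 cells were defined. The WT D30 libraries were labelled mature blood cells, and for cells taken on from D16 the methods describe colony growth in methylcellulose and a neutrophil culture with G-CSF. The sources used here do not state which culture gave the D30 libraries, or its oxygen level. Day, medium, oxygen, culture stage, the CD34 and CD45 definition of the D16 cells and any preparation that went with a day therefore cannot be told apart. The sources used here do not say that the 3 libraries of a day were separate cultures, so that p-values measure the spread between these libraries, which may be technical.

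Blood cells arise from multipotent progenitors that carry CD34 and KIT and divide under cytokines. Their descendants leave the cell cycle and fill with lineage products: hemoglobin and a membrane skeleton in red cells, toxic granule proteins in neutrophils and eosinophils, and in macrophages a large lysosomal system with scavenger receptors. In bulk RNA, a change in the number of cells of a type and a change in RNA per cell cannot be told apart, and this holds for every result given here.

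Total counts per library ran from 7991354 to 19368927, with between 8.9% and 13.6% of the reads in the top 20 genes. The first principal component, which separated the days, held 85.3% of the variance. Correlations of log2 CPM (counts scaled by library total and TMM factor) were 0.972 to 0.982 within a day and 0.790 to 0.809 between days. With edgeR's quasi-likelihood test and Benjamini-Hochberg adjustment, 10291 genes, 70.2% of those tested, were called at an adjusted p under 0.1. Of these, 5074 rose (34.6%) and 5217 fell (35.6%) at D30. Rises of over 2-fold were called for 2921 genes (19.9%) and falls of over 2-fold for 2639 (18%), and the libraries of the days did not overlap for 70.3% of the genes tested. The median log2 fold change over all genes was -0.01. Counts for a gene group below are to be read against those shares, and "rose" and "fell" are used of called genes only. Of the genes described below, some have exons that overlap a gene on the opposite strand, among them ALAS2, SPTB, BHLHE41, ACP5, FADS2, MX1, CCND1 and MCM7, and their counts are uncertain because the sources used here do not state whether quantification used strand. Levels are given as CPM, as mean ± SD (n = 3), and log2 fold changes of D30 over D16 with their SE.

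**Figure D1:**
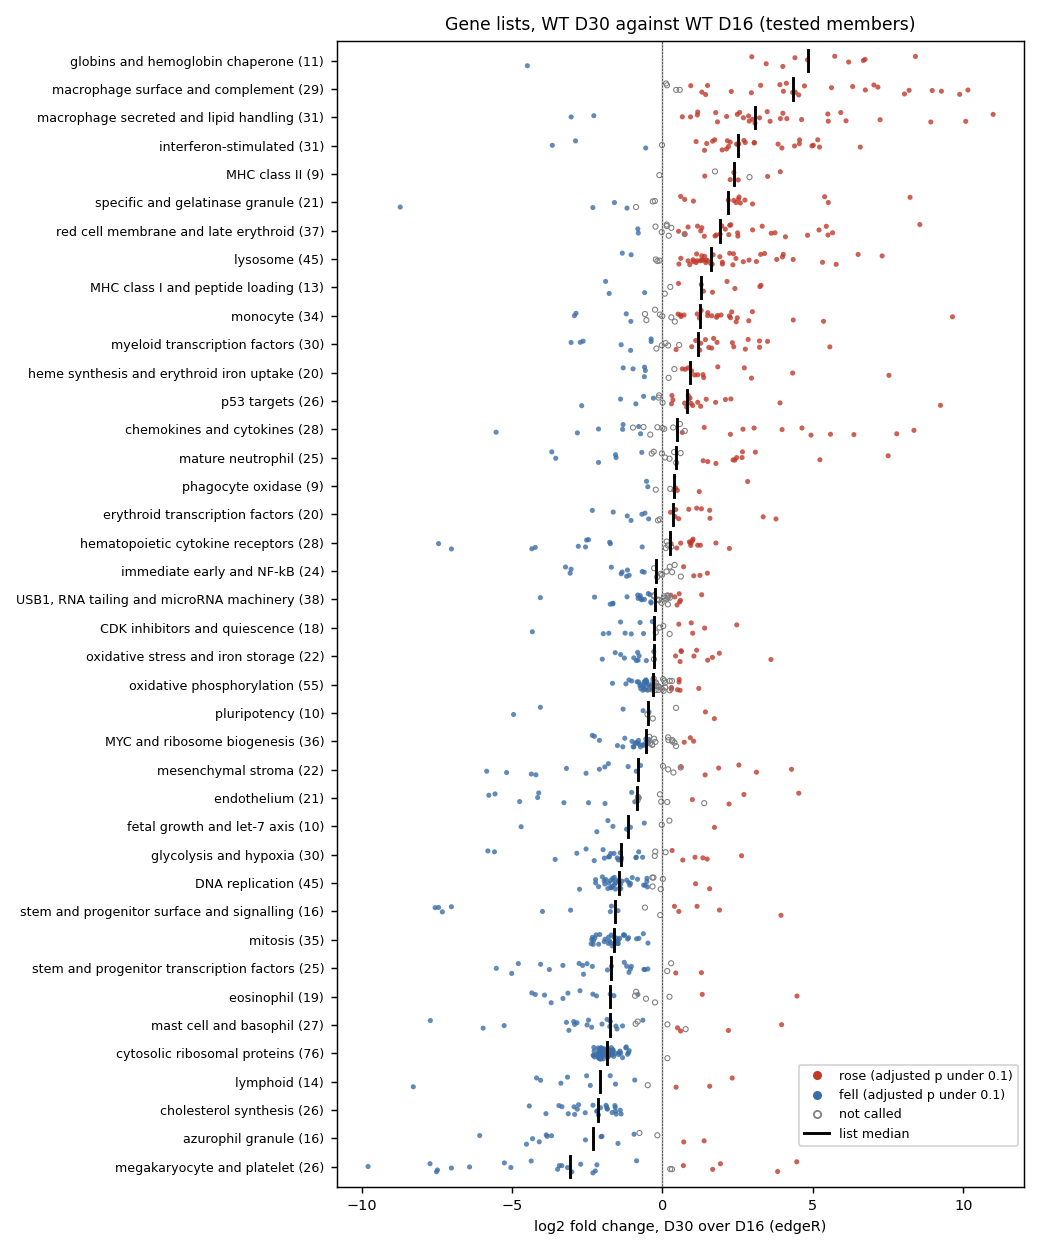
Log2 fold change of D30 over D16 (x axis) for the tested members of 40 gene lists (rows, number of tested members in parentheses), ordered by the list median (black bar). Red points rose, blue points fell and open points were not called; globins (median 4.82) and the macrophage lists (4.33 and 3.08) stand at one end, and platelet genes (-3.08) at the other.

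The progenitor markers were read first, CD34 and PTPRC as a description with no test. CD34, the sialomucin by which progenitors are recognized, stood at 69.9, 108 and 160 CPM in the D16 libraries and at 14.1, 13.4 and 13.4 CPM in the D30 libraries. Every D16 library was above every D30 library, and the log2 fold change was -3.05 ± 0.28. PTPRC, which encodes the pan-leukocyte antigen CD45, overlapped between the days (log2 fold change -0.12, and -0.41 with transcript lengths as offsets). KIT, the receptor for SCF, read 46.8, 112 and 82 CPM at D16 and 38.9, 9.98 and 25.6 CPM at D30. The lowest D16 library was close to the highest D30 library, and KIT fell by 1.73 ± 0.45 (edgeR adjusted p = 0.00764).

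Of the 16 tested genes of the stem and progenitor surface list, 9 fell, all over 2-fold, and 5 rose. The list median was -1.59. KIT and CD34 are both among the 9. CD34 took part in defining the D16 cells, so its fall is no support for the list result. FLT3, the receptor for FLT3L, went from 28.1, 30.5 and 14.8 CPM to 0.239, 0.0993 and 0.101 CPM. ANGPT1, a TIE2 ligand of progenitors and megakaryocytes, fell by 7.31 ± 0.38. Those that rose included PROCR (the protein C receptor, 5.48 ± 0.506 to 20.4 ± 4.02 CPM), CD44, CD109 and NRIP1. AVP, a transcript of the most primitive progenitors, had 70 counts at D16 and 0 at D30, which makes D30 at least 22.4-fold lower with a floor of 3 counts over the group. PROM1 had 0 counts over the D16 libraries and SPINK2 had 34, too few to test.

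Among 25 tested stem and progenitor transcription factors, 21 fell (18 over 2-fold) and 2 rose, with a median of -1.69. GATA2, a zinc finger factor of stem, mast and basophil cells, stood at 383, 316 and 237 CPM at D16 and 59.6, 51.3 and 54.3 CPM at D30. The days did not overlap, and the fall was 2.50 ± 0.18 on the log2 scale (edgeR adjusted p = 5.05e-06). MYB (331 ± 25.8 to 65.8 ± 14.9 CPM), MEIS1 (45.2 ± 11.1 to 3.21 ± 1.12 CPM) and MECOM (13.1 ± 7.39 to 0.427 ± 0.113 CPM), all needed for stem cell self-renewal, fell as well. So did ZBTB16 and MYCN, while RUNX1, the factor that starts blood formation, fell only from 413 ± 55.6 to 202 ± 17.8 CPM. The 2 that rose were LMO2 (1.30 ± 0.13) and TAL1 (0.44 ± 0.14), partners in one DNA-binding complex of erythroid cells. HOXA9 had 47 counts over the D16 libraries and 17 over the D30 libraries, and HOXA10 had 34 and 19, both too low to test.

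**Figure D2:**
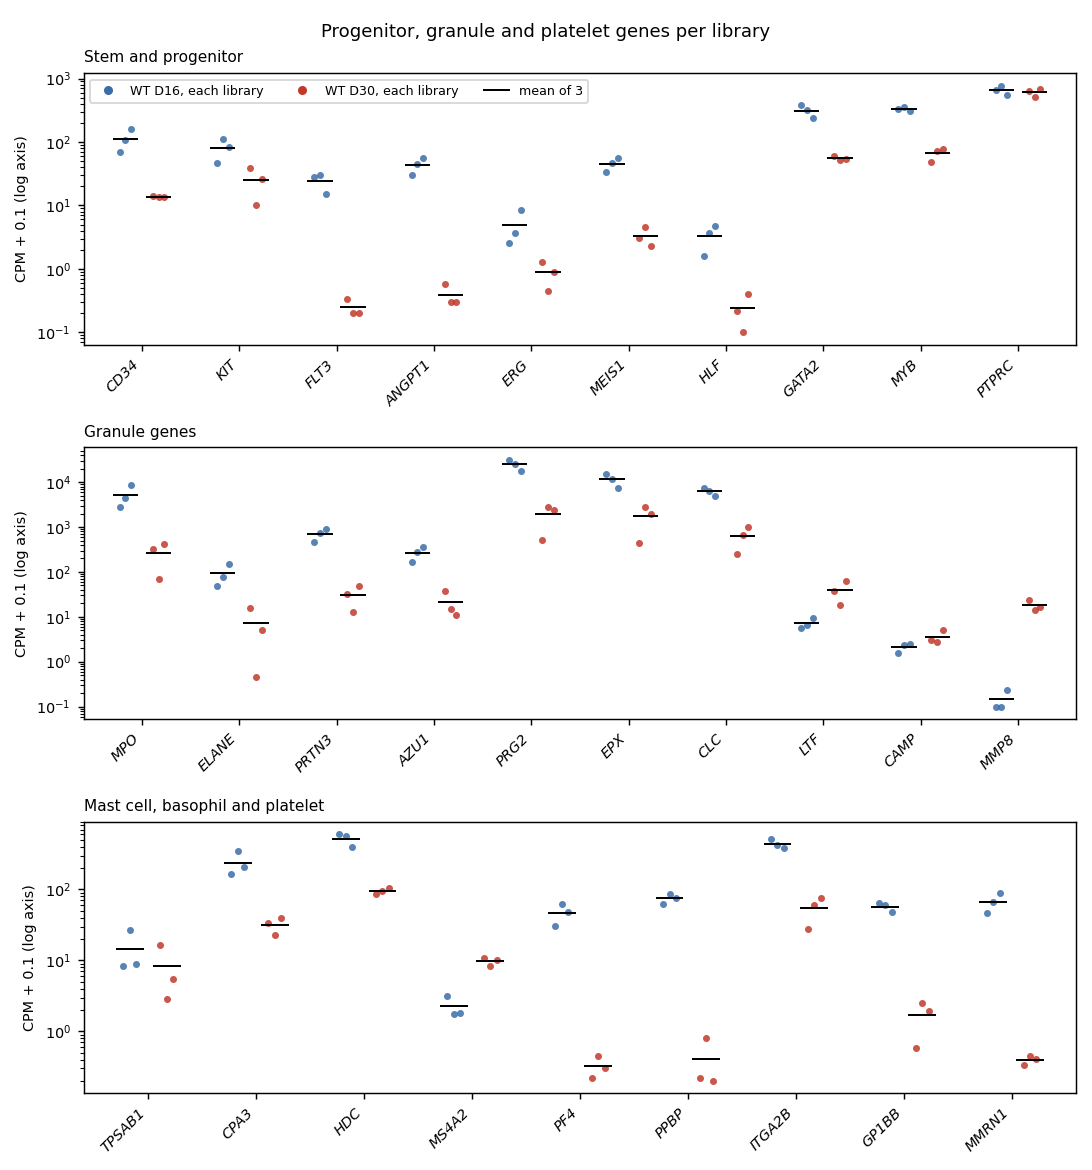
CPM + 0.1 on a log axis in each WT D16 (blue) and WT D30 (red) library for progenitor genes, granule genes, and mast cell, basophil and platelet genes, with the mean of 3 as a bar. PTPRC overlaps between the days and CD34, FLT3, MPO, PRG2 and PF4 do not; LTF and MMP8 are higher at D30.

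The globins showed the highest median of all lists. Of 11 tested globins and globin partners, 10 rose, all over 2-fold, and 1 fell, with a median of 4.82, and their summed level went from 461 to 853 CPM in the D16 libraries to 12600 to 16750 CPM in the D30 libraries. HBG2, a fetal gamma globin, read 226, 352 and 457 CPM at D16 and 6026, 4332 and 6235 CPM at D30. All D30 libraries were far above all D16 libraries, and HBG2 rose by 4.0 ± 0.30 (edgeR adjusted p = 5.12e-06), to the highest TPM (a level per transcript length) of any gene at D30. The embryonic globin HBE1 reached 3139 ± 546 CPM from 111 ± 23 CPM, and the alpha globins HBA1 and HBA2 reached 2954 ± 83.8 and 2966 ± 553 CPM from 40.2 ± 13.8 and 27.5 ± 16.4 CPM. HBB, the adult beta globin, rose by 5.73 ± 0.46 but only to 159 ± 64.7 CPM.

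HBD, the minor adult delta globin, was the exception. It stood at 88.1, 105 and 109 CPM at D16 and at 2.15, 5.36 and 5.45 CPM at D30, so that it fell by 4.49 ± 0.27 while HBB rose. The pairs HBA1 and HBA2, HBG1 and HBG2, and HBB and HBD are near-identical or closely similar copies, and how the authors' quantification divided reads between the copies of a pair is uncertain. AHSP, the chaperone of free alpha globin, went from 0.453, 0.0593 and 0 CPM to 69.98, 29.7 and 40.2 CPM, with no overlap (log2 fold change 8.41 ± 0.62).

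Of 20 heme synthesis and iron uptake genes, 13 rose and 5 fell, with a median of 0.91. ALAS2, the erythroid enzyme that starts heme synthesis, rose from 13.3 ± 4.33 to 272 ± 90.1 CPM, the mitochondrial iron importer SLC25A37 from 116 ± 15 to 909 ± 306 CPM, and the transferrin receptor TFRC from 442 ± 68.5 to 1146 ± 170 CPM. TSPO2, an erythroid relative of the mitochondrial translocator protein, had 0 counts at D16 and 65 at D30, at least 22.6-fold higher with a floor of 3 counts over the group. The 5 that fell were CPOX, SLC25A38, ABCB10, FLVCR1 and ALAS1, the housekeeping counterpart of ALAS2. The ALAS1 libraries overlapped between the days (667 ± 215 and 442 ± 117 CPM), and leaving out D16 library 1 or 2 or D30 library 1 or 2 took its adjusted p to between 0.123 and 0.245.

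Among 37 genes of the red cell membrane and late erythroid cells, 28 rose (25 over 2-fold) and 2 fell, with a median of 1.92. SLC4A1, the band 3 anion exchanger of the red cell, stood at 2.72, 1.96 and 1.39 CPM at D16 and 888, 667 and 662 CPM at D30. The days were separated by over 2 orders of magnitude, and the log2 fold change was 8.56 ± 0.27 (edgeR adjusted p = 8.08e-08). Its membrane partners EPB42 (protein 4.2, 5.66 ± 0.37), SPTB (beta spectrin, 3.74 ± 0.28) and ANK1 (ankyrin, 3.62 ± 0.29) rose too. Each of these was highest in D30 library 1. The 2 that fell were ICAM4 and TFR2, and the 7 not called were GYPE, RHAG, XK, TMOD1, SLC14A1, EPOR and CAT.

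**Figure D3:**
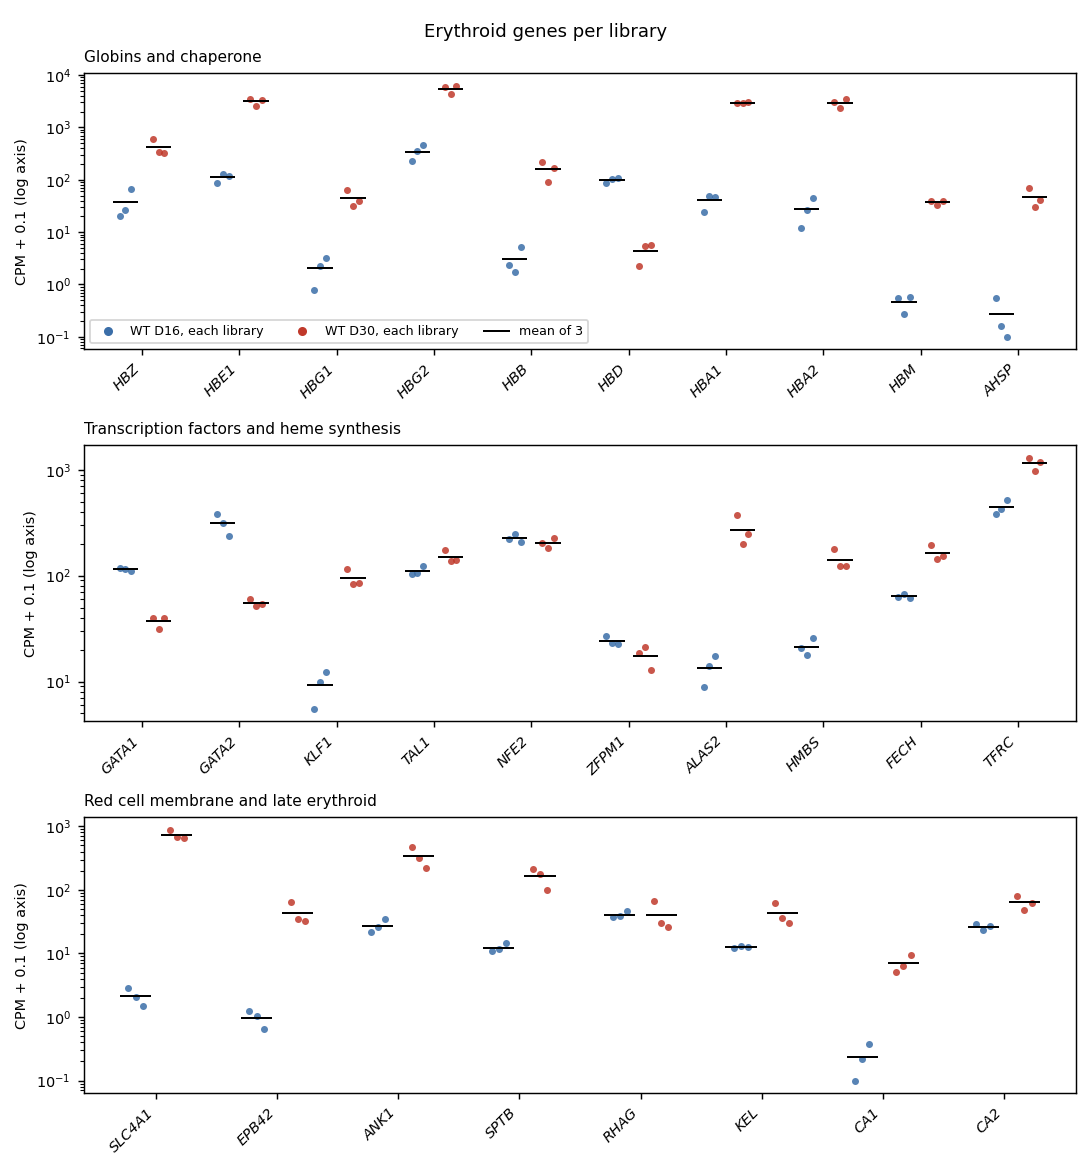
CPM + 0.1 on a log axis in each WT D16 (blue) and WT D30 (red) library for globins and AHSP, erythroid transcription factors with heme synthesis genes, and red cell membrane genes, with the mean of 3 as a bar. HBD and GATA1 are lower at D30 while HBG2, KLF1 and SLC4A1 are higher, and SPTB and ANK1 are higher in every D30 library, with their highest value in library 1.

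The erythroid transcription factors were divided, 11 of 20 having risen and 7 fallen, with a median of 0.34. GATA1, the zinc finger factor of erythroid, megakaryocyte, eosinophil and mast cells, read 117, 116 and 110 CPM at D16 and 39.8, 31.5 and 39.5 CPM at D30. It was higher in every D16 library and fell by 1.63 ± 0.13 (edgeR adjusted p = 7.91e-06). KLF1, which binds CACCC elements of globin and membrane genes, went the other way, from 5.44, 9.72 and 12.1 CPM to 115, 83.6 and 85.7 CPM. SOX6 (3.78 ± 0.57, and 2.98 without D30 library 1), E2F2 (1.57 ± 0.14) and NFE2L1 (1.58 ± 0.12) rose with it, whereas NFE2 was not called (227 ± 18.5 and 205 ± 21.7 CPM).

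For the red cell membrane list, of which 28 of 37 genes rose, the bases before the start sites were read from the RefSeq promoter table (GRCh38.p14, 250 bases before to 50 after the start, 11019 of the genes tested). The letters AGATAA of the GATA motif, on either strand, stood in 10 of the 27 red cell membrane genes that had a window, 37%, against 5.43% of all windows. Only those 27 of the 37 genes had a window, so that the share describes them and not the list. The stretch before EPB42, a member that rose and holds the motif, is shown with the motif in capitals (chr15:43221039-43221114, minus strand, 5′ to 3′).
EPB42: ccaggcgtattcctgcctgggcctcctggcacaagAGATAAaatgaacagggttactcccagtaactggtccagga
The same letters stood in 6.45% of the genes that rose over 2-fold and in 6.31% of those that fell over 2-fold. They also stood in 6 of the 21 mast cell and basophil genes with a window, 28.6%, a list of which 19 of 27 tested genes fell. The CACCC letters CCACACC were searched too, and stood in 2 of the 27 red cell membrane genes with a window, 7.41%. They stood in 0 of the 2 globin list genes with a window and in 6.06% of all windows.

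Macrophage genes made up the other large rise. Of 29 tested genes of the macrophage surface and complement list, 25 rose, 24 of them over 2-fold, and none fell, with a median of 4.33. MRC1, the mannose receptor, read 24.4, 57.7 and 46.5 CPM at D16 and 1387, 999 and 1030 CPM at D30. CD163, the hemoglobin scavenger receptor, read 4.65, 7.82 and 6.47 CPM at D16 and 352, 405 and 195 CPM at D30. In both genes every D30 library was above every D16 library (log2 fold changes 4.72 ± 0.32 and 5.62 ± 0.32, edgeR adjusted p = 3.2e-06 and 1.37e-06). VSIG4, a complement receptor of resident macrophages, rose from 0.735 ± 0.349 to 399 ± 46.5 CPM, and TREM2, a lipid sensor, from 1.27 ± 1.24 to 365 ± 41.4 CPM. CD68 was already at 147 ± 37.2 CPM at D16 and reached 719 ± 100 CPM.

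Several of these genes were close to absent at D16. MSR1, the class A scavenger receptor, had 3 counts over the D16 libraries and 3704 over the D30 libraries, 1289 times as much with a counting interval of 441 to 6250. DCSTAMP and OCSTAMP, which drive the fusion of macrophages and osteoclasts into giant cells, stood at 0.174 ± 0.153 and 0.0661 ± 0.0698 CPM at D16 and at 174 ± 16.4 and 52.1 ± 13.9 CPM at D30. GPNMB, a glycoprotein of lipid-laden macrophages, went from 11.9 ± 4.37 to 1738 ± 280 CPM, the highest D30 mean of the list. The 4 not called were LYVE1, TREM1, CD84 (952 ± 243 and 1037 ± 144 CPM) and ADAMDEC1.

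Secreted and lipid-handling macrophage products rose in 29 of 31 cases, 27 of them over 2-fold, with a median of 3.08. SPP1, the matrix cytokine osteopontin, stood at 122, 178 and 79.7 CPM at D16 and 6719, 9318 and 7141 CPM at D30. APOE, an apolipoprotein, stood at 22.1, 38.1 and 43.6 CPM and then at 2205, 2657 and 2323 CPM. Both were far higher in every D30 library (log2 fold changes 5.93 ± 0.35 and 6.10 ± 0.29). CHIT1, the chitinase of lipid-laden macrophages, reached 1322, 2553 and 4630 CPM from 2.51 ± 0.758 CPM, with a wide spread between the D30 libraries. LPL (lipoprotein lipase) rose to 520 ± 19 CPM, A2M, a protease trap, to 1345 ± 226 CPM, and the proteases MMP9 and MMP12 to 1004 ± 84.4 and 121 ± 49.7 CPM. For MMP12, which had 2 counts at D16, the ratio was 2205 with a counting interval of 610 to 18200.

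The 2 genes of this list that fell both serve the storage or making of fat. PLIN2, which coats lipid droplets, read 1441, 1724 and 803 CPM at D16 and 149, 147 and 189 CPM at D30. SCD, which desaturates fatty acids, went from 1481 ± 373 to 305 ± 32.3 CPM. Both were lower in every D30 library than in any D16 library.

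Lysosomal genes rose in 40 of 45 cases, 36 of them over 2-fold, and 2 fell, with a median of 1.61. CTSD, the acid protease cathepsin D, read 477, 443 and 363 CPM at D16 and 6404, 7052 and 7345 CPM at D30, and CTSB, cathepsin B, read 261, 340 and 249 CPM and then 4100, 4056 and 3687 CPM. The spread within a day was small beside these differences (log2 fold changes 4.02 ± 0.20 and 3.80 ± 0.19, edgeR adjusted p = 6.42e-07 and 6.82e-07). CTSL (5.32 ± 0.17), LGMN (5.78 ± 0.39) and CTSK (4.35 ± 0.21), further cathepsins and a legumain, ACP5, the acid phosphatase of osteoclasts (6.51 ± 0.28), and ATP6V0D2, a proton pump subunit (7.30 ± 0.41), rose more steeply. PSAP, the precursor of the saposins, rose from 1086 ± 74.5 to 5589 ± 648 CPM, and GRN (progranulin) from 87.2 ± 14.5 to 1388 ± 120 CPM. IDS and ARSB, a pair of sulfatases, fell. LAMP2, GLB1 and CD63 were not called, although LAMP1 rose from 114 ± 7.77 to 349 ± 12.2 CPM. TFEB, which binds the CLEAR element of lysosomal promoters, rose from 4.78 ± 0.848 to 45.2 ± 5.39 CPM.

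The CLEAR core TCACGTG, on either strand, stood in 8 of the 29 lysosomal genes that had a promoter window (of 45 tested), 27.6%, against 5.69% of all windows, 5.34% of the genes that rose over 2-fold and 4.43% of those that fell over 2-fold. CTSD holds it close to its RefSeq start site, on the minus strand of the gene's sequence as printed here, with the matching letters in capitals (chr11:1763933-1764009, minus strand, 5′ to 3′).
CTSD: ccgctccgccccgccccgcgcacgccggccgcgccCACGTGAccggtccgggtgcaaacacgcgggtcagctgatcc

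**Figure D4:**
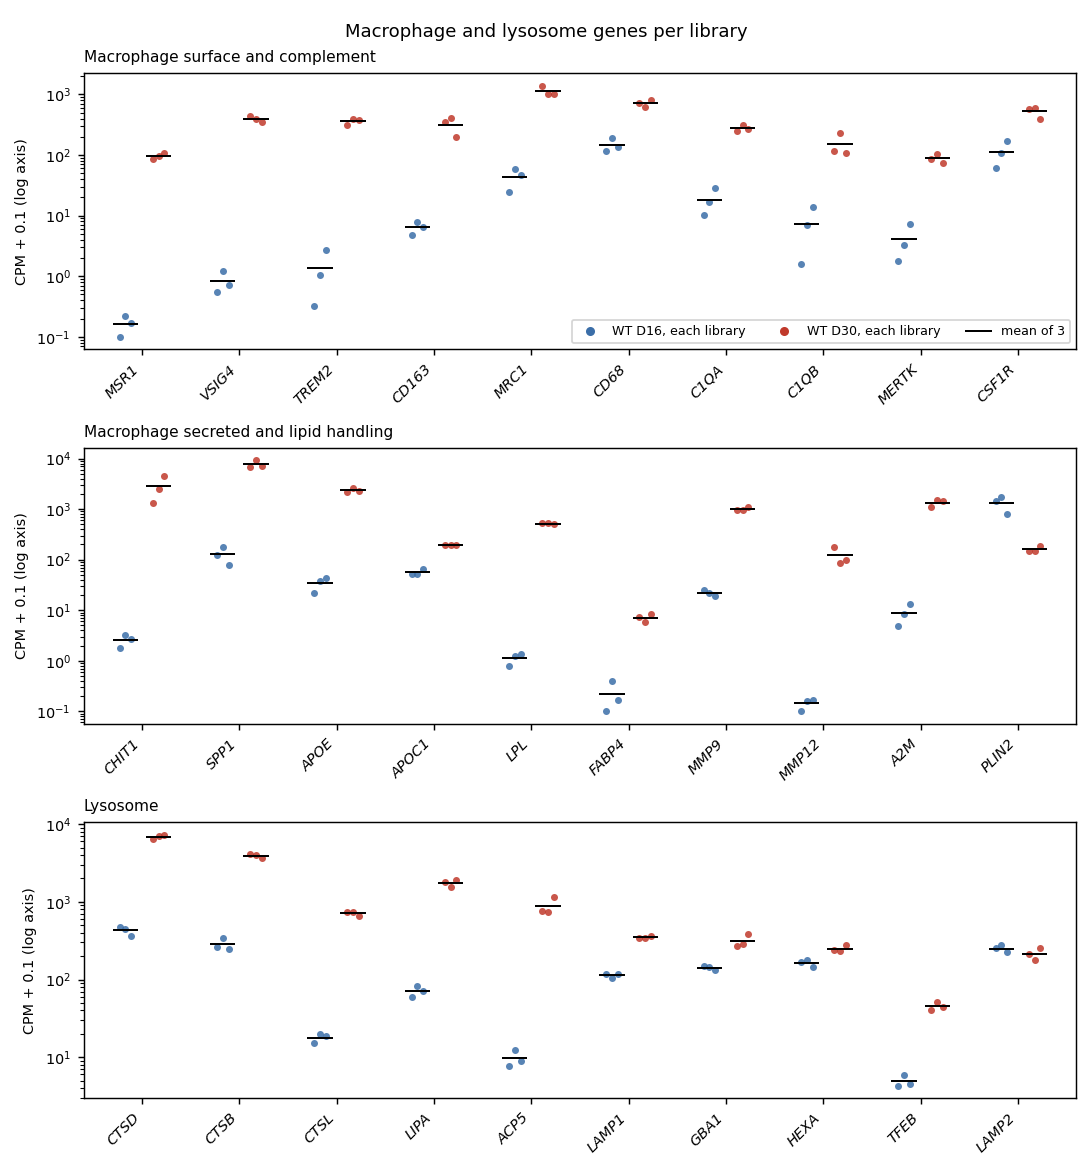
CPM + 0.1 on a log axis in each WT D16 (blue) and WT D30 (red) library for macrophage surface, macrophage secreted and lysosomal genes, with the mean of 3 as a bar. PLIN2 is lower at D30 and LAMP2 overlaps between the days; the other genes shown are higher at D30, CTSD from 363 to 477 CPM to 6404 to 7345 CPM.

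Monocyte genes rose in 23 of 34 cases and fell in 4, with a median of 1.26. CD14, the endotoxin co-receptor, rose from 15.9 ± 6.24 to 330 ± 111 CPM, ITGAX (CD11c) from 26.4 ± 9.18 to 1079 ± 141 CPM, and LYZ (lysozyme) from 691 ± 354 to 2460 ± 772 CPM. CX3CR1, the fractalkine receptor, FCGR2A and FCGR2B, a pair of antibody receptors with shared sequence, and CCR2, the receptor for CCL2, fell. The myeloid transcription factors rose in 18 of 30 cases and fell in 7. SPI1, the PU.1 factor, rose by 1.54 ± 0.14 and CEBPB by 1.43 ± 0.14, while CEBPE, of late granulocytes, fell by 1.05 ± 0.33 and NR4A1 by 3.03 ± 0.39 (log2 fold change -2.37 without D16 library 3). BHLHE41, a factor of resident macrophages, showed the largest rise of this list, from 1.80 ± 0.343 to 87.1 ± 23.7 CPM.

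CSF1, the growth factor of macrophages, and its receptor both rose. The ligand read 1.36, 2.67 and 6.40 CPM at D16 and 1050, 1389 and 1140 CPM at D30, and CSF1R, the receptor, read 61.9, 107 and 168 CPM at D16 and 578, 605 and 397 CPM at D30. Neither gene overlapped between the days, the ligand having risen by 8.36 ± 0.45 and the receptor by 2.23 ± 0.33 on the log2 scale. Among 28 chemokines and cytokines tested, 12 rose and 7 fell, with a median of 0.47. CCL2, CCL13, CCL22 and CCL24, attractants of monocytes, eosinophils and T cells, rose, CCL13 from 0.314 ± 0.298 to 83.9 ± 43.4 CPM. CXCL8, the neutrophil attractant, fell from 474 ± 171 to 109 ± 32.1 CPM, and IL32 fell by 5.53 ± 0.36.

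Of the 28 hematopoietic cytokine receptors, all tested, 13 rose and 11 fell, with a median of 0.24. Among those that fell were FLT3 and KIT as given above, IL3RA from 103 ± 19.3 to 30.6 ± 12.1 CPM, IL1R1 from 96.4 ± 16.1 to 17 ± 4.23 CPM, and IL2RG, LIFR and IL18R1. IL5RA and IL1RL1, the receptors of eosinophils and mast cells for IL-5 and IL-33, fell by 4.22 ± 0.32 and 4.34 ± 0.27. CSF3R, the receptor for G-CSF, rose from 267 ± 40.5 to 916 ± 305 CPM, and IL6R, IL6ST, IL4R, IL13RA1, IFNGR1, TNFRSF1A and TNFRSF1B rose by 0.90 to 1.26 on the log2 scale. Smaller rises were called for CSF2RA (0.61 ± 0.14) and IL10RA (0.48 ± 0.15). EPOR, the EPO receptor, was not called (34 ± 5.90 and 41.7 ± 2.58 CPM), nor were IFNGR2, TGFBR1 and TGFBR2. The calls of CSF2RB (1414 ± 475 and 888 ± 207 CPM, libraries overlapping), IL10RB and IL1R2 were not stable, CSF2RB's being lost without D16 library 1, D30 library 1 or D30 library 2 (edgeR adjusted p 0.120 to 0.166).

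The most abundant transcript at D16 belonged to the eosinophil. PRG2, the major basic protein of its granule, read 31599, 25645 and 17477 CPM at D16 and 515, 2794 and 2449 CPM at D30, and by TPM it was first of all genes at D16, followed by CLC, the Charcot-Leyden crystal galectin. The days did not overlap, and D30 library 1 was the lowest (log2 fold change -3.70 ± 0.57, edgeR adjusted p = 0.000394). EPX, eosinophil peroxidase, fell from 11549 ± 4080 to 1729 ± 1186 CPM, and CLC from 6296 ± 1340 to 637 ± 377 CPM. The eosinophil list summed to 33830 to 61950 CPM in the D16 libraries, 4.89% of the scaled counts on average, and to 1811 to 7590 CPM in the D30 libraries. In all, 12 of 19 members fell, with a median of -1.73, and 2 rose, SMPD3 and RNASE1, the latter also made by other cells.

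Azurophil granule genes, first made at the promyelocyte stage, fell in 12 of 16 cases, with a median of -2.30. MPO, myeloperoxidase, read 2872, 4366 and 8708 CPM at D16 and 321, 70.9 and 412 CPM at D30, with no overlap (log2 fold change -4.31 ± 0.66, edgeR adjusted p = 0.000351). The serine protease genes PRTN3 (703 ± 222 to 31.1 ± 18.4 CPM), ELANE (92.7 ± 52.1 to 7.14 ± 8.05 CPM) and PRSS57 (344 ± 21.8 to 4.47 ± 4.90 CPM) fell as well. GUSB and CTSC, enzymes that lysosomes also hold, rose, and DEFA3 and CD63 were not called. The C/EBP letters TTGCGCA or TTGCAAC stood in 0 of the 9 azurophil genes with a promoter window, against 4.47% of all windows.

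Genes of the specific and gelatinase granules, made later, rose in 14 of 21 cases and fell in 4, with a median of 2.19. LTF (lactoferrin) rose from 7.13 ± 1.86 to 39.5 ± 22 CPM, and MMP8, the neutrophil collagenase, from 2 counts over the D16 libraries to 638 over the D30 libraries (ratio 333, counting interval 91.8 to 2750). The members with the highest levels at D30, CHI3L1 (2276 ± 360 CPM) and MMP9, are also macrophage products. CAMP, the cathelicidin, was at 2.05 ± 0.50 and 3.52 ± 1.33 CPM, and its call was lost without D16 library 1, 2 or 3 or D30 library 3 (edgeR adjusted p 0.118 to 0.363). The 4 that fell were CD177, ARG1, HP and PTX3.

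The genes of mature neutrophils were divided, 11 of 25 having risen and 6 fallen, with a median of 0.46. S100A8, a subunit of calprotectin, read 361, 495 and 470 CPM at D16 and 747, 859 and 2169 CPM at D30, and its partner S100A9 moved likewise (843 ± 149 to 2156 ± 1274 CPM). D30 library 3 was the highest of all in both, and without it the log2 fold changes were 0.87 for S100A8 and 0.76 for S100A9, against 1.51 and 1.35. The integrin chains ITGAM and ITGB2, which monocytes and macrophages also carry, rose to 870 ± 85.7 and 2256 ± 402 CPM. By contrast FCGR3B, the neutrophil antibody receptor, fell from 57.1 ± 45.6 to 4.91 ± 2.69 CPM and CXCR2 by 0.68 ± 0.21. Of 9 phagocyte oxidase genes, 5 rose (2 over 2-fold) and 2 fell, with a median of 0.38. CYBB, the catalytic subunit, rose from 339 ± 14.4 to 2417 ± 331 CPM, and those that fell were NCF4 (270 ± 26.6 to 193 ± 45.2 CPM), a cytosolic subunit, and HVCN1 (75.1 ± 21.5 to 52 ± 8.24 CPM), a proton channel. The NCF4 call was lost without D30 library 1 or 2, and the HVCN1 call without D16 library 1 or 2 or D30 library 1 (edgeR adjusted p up to 0.120 and 0.188).

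Mast cell and basophil genes fell in 19 of 27 cases and rose in 4, with a median of -1.75. CPA3, mast cell carboxypeptidase, went from 239 ± 92.5 to 31.9 ± 8.62 CPM, and HDC, which makes histamine, from 521 ± 106 to 95 ± 9.05 CPM. MS4A2, the beta chain of the IgE receptor, rose from 2.15 ± 0.787 to 9.65 ± 1.32 CPM, as did HPGDS, GRAP2 and CCL1. FCER1A, the alpha chain, was not called with 23.2, 2.83 and 4.85 CPM at D30, but without D30 library 1 it fell by 1.24 (edgeR adjusted p = 0.00745).

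The megakaryocyte and platelet list had the lowest median of all lists, -3.08, with 19 of 26 genes having fallen, 18 over 2-fold, and 5 risen. PF4, platelet factor 4, read 30.9, 62.8 and 47.8 CPM at D16 and 0.120, 0.348 and 0.202 CPM at D30, and PPBP, its neighbor in the chemokine family, read 61.3, 86 and 77 CPM and then 0.120, 0.695 and 0.101 CPM. Both were near 0 in all D30 libraries (log2 fold changes -7.48 ± 0.40 and -7.51 ± 0.38). ITGA2B, the fibrinogen receptor chain, fell from 440 ± 66.2 to 54.4 ± 24.3 CPM, and MMRN1, GP9 and GP1BB, a granule protein and parts of the von Willebrand factor receptor, fell by 7.72 ± 0.35, 6.41 ± 0.56 and 5.04 ± 0.34. CLEC1B, a platelet lectin, had 350 counts at D16 and 0 at D30, at least 112-fold lower. VWF, TREML1, PTCRA, P2RY12 and THBS1 rose. THBS1 (1448 ± 169 and 2346 ± 916 CPM) overlapped between the days and lost its call without D16 library 2 or 3 or D30 library 2 or 3 (edgeR adjusted p 0.109 to 0.194).

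The ETS letters AGGAAGT, on either strand, stood in 7 of the 20 platelet genes with a window, 35%, in 9 of 28 monocyte genes, 32.1%, and in 8.45% of all windows. Most genes of the first list fell and most of the second rose. In the macrophage surface and complement list, to which CD68 belongs, the letters stood in 3 of 16 windows, 18.8%. The stretches before the RefSeq start sites of PPBP, a falling platelet gene, and CD68, a rising macrophage gene, are shown with the letters in capitals, 5′ to 3′. They are chr4:73988229-73988305, minus strand, for PPBP and chr17:7579537-7579613, plus strand, for CD68.
PPBP: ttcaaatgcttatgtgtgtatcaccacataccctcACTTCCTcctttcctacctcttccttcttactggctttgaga
CD68: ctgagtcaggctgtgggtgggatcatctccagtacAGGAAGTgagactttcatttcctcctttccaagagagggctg

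Genes of cell division fell as a block. All 35 genes of the mitosis list fell, 31 of them over 2-fold, with a median of -1.61. MKI67, the proliferation antigen, read 659, 702 and 708 CPM at D16 and 355, 349 and 225 CPM at D30, and ASPM, a spindle pole protein, read 330, 356 and 357 CPM and then 80.0, 67.3 and 60.8 CPM. Neither overlapped between the days (log2 fold changes -1.16 ± 0.18 and -2.33 ± 0.14, edgeR adjusted p = 0.000474 and 1.91e-06). Of 45 DNA replication genes, 38 fell (32 over 2-fold) and 2 rose, with a median of -1.45. ORC1, of the origin recognition complex, fell by 2.75 ± 0.16, and the helicase subunits MCM2, MCM4 and MCM7 by 1.56 to 1.70. The risers were E2F2 and ORC6 (73.6 to 158 CPM).

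The promoter windows of both lists were searched for known cell cycle letters. The cell cycle homology region TTTGAA stood in 21 of the 29 mitosis genes with a window, 72.4%, against 10.2% of all windows, and CCAAT in 24 of 29, 82.8%, against 36.6%. The E2F letters TTCCCGC or TTGGCGC stood in 27 of the 40 replication genes with a window, 67.5%, and in 3 of the 29 mitosis genes, 10.3%, against 14.3% of all windows. Among all genes that fell over 2-fold, TTTGAA stood in 12.2%, CCAAT in 39.7% and the E2F letters in 16.1%. Among all that rose over 2-fold, the shares were 9.62%, 31.8% and 11.1%. Printed 5′ to 3′ with these letters in capitals are the stretches before ASPM (chr1:197146742-197146817, minus strand) and HMMR (chr5:163460575-163460631, plus strand) with the cell cycle homology region, and before ORC1 (chr1:52404424-52404480, minus strand) with the E2F letters.
ASPM: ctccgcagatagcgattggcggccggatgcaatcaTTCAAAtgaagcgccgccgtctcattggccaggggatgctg
HMMR: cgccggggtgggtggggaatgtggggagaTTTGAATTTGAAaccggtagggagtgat
ORC1: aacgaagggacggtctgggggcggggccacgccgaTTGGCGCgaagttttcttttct

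A list of cyclin-dependent kinase inhibitors and other antiproliferative genes, which also holds the D cyclins and the kinases CDK4 and CDK6 that drive the cycle, was divided, 5 of 18 having risen and 9 fallen. CDKN1A (p21) rose from 128 ± 13.9 to 258 ± 51.5 CPM, CDKN2B from 12.2 ± 3.62 to 32.1 ± 4.34 CPM and CCND1, a cyclin, from 10.1 ± 1.58 to 55.4 ± 15.9 CPM. CDKN1C (p57), an inhibitor of quiescent stem cells, fell from 57.4 ± 12.9 to 2.91 ± 1.16 CPM, and CCND2 and CDK6 fell by 1.96 ± 0.15 and 1.78 ± 0.20. Of 26 p53 targets, 18 rose and 5 fell, with a median of 0.83. GDF15, a stress cytokine that macrophages also make, read 0.567, 0.474 and 0.626 CPM at D16 and 269, 332 and 416 CPM at D30 (log2 fold change 9.24 ± 0.27). The p53 targets CCNG1 and BTG2 went the other way, from 309 ± 29 to 48.2 ± 8.48 CPM and from 784 ± 181 to 299 ± 77.5 CPM.

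The translation machinery fell in step. Of 76 cytosolic ribosomal protein genes, 75 fell, all over 2-fold, with a median of -1.86 and falls down to -2.30, and their summed level went from 42310 to 57100 CPM in the D16 libraries to 12940 to 14650 CPM in the D30 libraries. RPL3 read 2050, 2079 and 2404 CPM at D16 and 509, 517 and 476 CPM at D30, a fall of 2.12 ± 0.15 (edgeR adjusted p = 4.02e-06). The remaining gene, RPS9, was low and uneven (10.5, 56.1 and 10.1 CPM at D16 and 29.1 ± 10.8 CPM at D30), and without D16 library 2 it was called as a rise of 1.49. EEF1A1, the elongation factor, fell by 1.84 ± 0.19. Among 36 MYC and ribosome biogenesis genes, 21 fell and 3 rose, with a median of -0.55, NPM1 from 674 ± 120 to 134 ± 18.3 CPM and MYC from 100 ± 29.6 to 55 ± 9.51 CPM.

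Every one of the 26 cholesterol synthesis genes fell over 2-fold, with a median of -2.14. HMGCS1, which makes the HMG-CoA used by the pathway, read 512, 846 and 639 CPM at D16 and 32.4, 26 and 35 CPM at D30. The days did not overlap (log2 fold change -4.42 ± 0.23, edgeR adjusted p = 7.44e-07). SQLE and DHCR7, enzymes of the pathway, fell by 3.34 ± 0.15 and 3.44 ± 0.16. FADS2, a fatty acid desaturase placed on this list, went from 1004 ± 79.5 to 68.6 ± 8.41 CPM. The sterol regulatory letters TCACNCCAC, searched after the falls had been seen, were found in 1 of 18 windows of these genes, that of SREBF2, and in 1.09% of all windows.

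Cells up to D16 were kept in low oxygen, and the part of oxygen in the next values was not tested. Glycolysis and hypoxia genes fell in 21 of 30 cases and rose in 6, with a median of -1.39. EGLN3 and BNIP3, targets of the hypoxia-inducible factors, fell at D30 from 106 ± 50.9 to 1.81 ± 0.511 CPM and from 134 ± 28 to 11.2 ± 1.16 CPM, and the enzymes ALDOC, LDHA and GAPDH fell by 5.58 ± 0.26, 2.84 ± 0.17 and 1.97 ± 0.17. SLC2A1, the glucose transporter, which red cells carry in quantity, rose by 1.49 ± 0.22, and HK3, the hexokinase of myeloid cells, from 108 ± 29 to 665 ± 62.4 CPM. PKM was not called (2294 ± 167 and 2471 ± 73.9 CPM). Oxidative phosphorylation genes moved less, 28 of 55 having fallen, 4 of them over 2-fold, and 7 risen, with a median of -0.33.

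**Figure D5:**
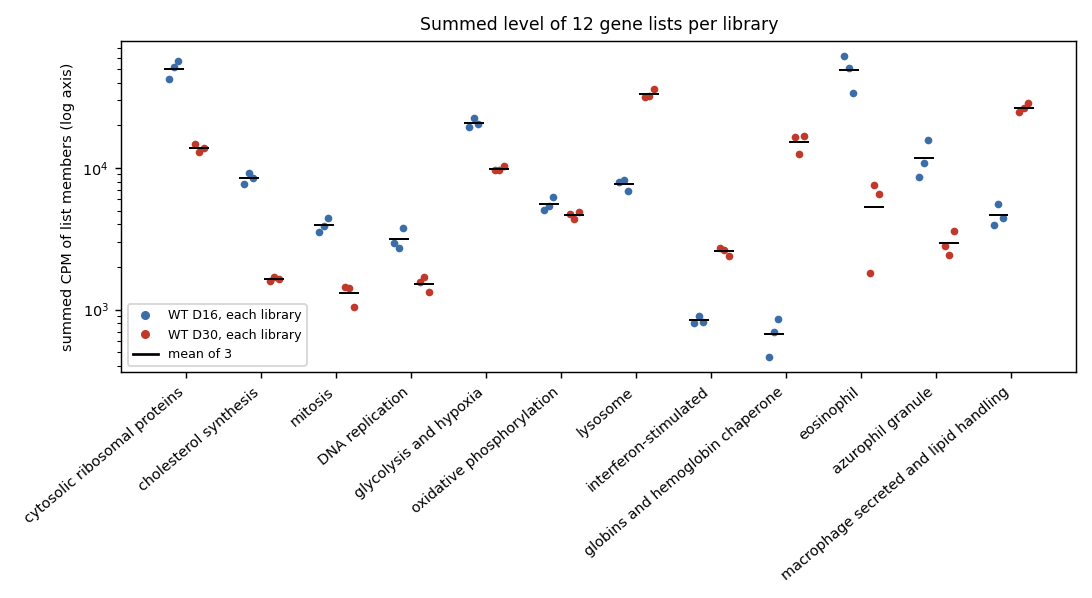
Summed CPM on a log axis of the members of 12 gene lists in each WT D16 (blue) and WT D30 (red) library, with the mean of 3 as a bar. Ribosomal protein, cholesterol, cell cycle, glycolysis, eosinophil and azurophil genes are lower at D30, lysosomal, interferon-stimulated, globin and macrophage genes higher, and the oxidative phosphorylation list is close between the days.

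Interferon-stimulated genes rose in 27 of 31 cases, all over 2-fold, with a median of 2.51. IFI6 read 12.1, 11.2 and 14.5 CPM at D16 and 511, 456 and 448 CPM at D30, and IFIT1, which binds viral RNA, read 2.15, 2.07 and 1.39 CPM and then 67, 61 and 53 CPM. Both groups of libraries were tight and well apart (log2 fold changes 5.22 ± 0.16 and 5.02 ± 0.21, edgeR adjusted p = 8.08e-08 and 3.28e-07). MX1 and OAS1 to OAS3 rose by 4.55 to 5.16 on the log2 scale, and STAT2, through which interferon signals, by 1.12 ± 0.12. The family members IFITM1 (104 to 8.46 CPM) and IFITM2 (212 to 28.6 CPM), which share sequence, fell, as did CMPK2, and IFITM3 was not called.

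The letters of the interferon-stimulated response element, TTTC and TTTC separated by 2 bases, searched after the rises had been seen, stood on either strand in 15 of the 23 list members with a window, 65.2%, against 2.89% of all windows and 4.13% of the genes that rose over 2-fold. IFI6 (chr1:27672241-27672320, minus strand) and IFIT1 (chr10:89392485-89392564, plus strand) each hold the letters at 2 places in the stretch shown, in capitals, 5′ to 3′.
IFI6: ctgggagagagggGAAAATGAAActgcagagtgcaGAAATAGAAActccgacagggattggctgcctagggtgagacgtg
IFIT1: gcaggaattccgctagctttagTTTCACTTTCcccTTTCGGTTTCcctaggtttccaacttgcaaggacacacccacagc

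Antigen-presentation genes were led by 1 library. CD74, the invariant chain of MHC class II, read 59.3, 101 and 128 CPM at D16 and 922, 257 and 200 CPM at D30, and HLA-DRB1 read 1.47, 6.22 and 8.07 CPM and then 62.6, 14.9 and 18.1 CPM. D30 library 1 was several times the other two, and 6 of 9 class II genes rose with none falling. CIITA, the class II activator, overlapped between the days and lost its call without D16 library 1 or 2 or D30 library 1 (edgeR adjusted p 0.112 to 0.207). HLA genes vary between people and have alternate copies in the reference, so that their counts are uncertain, and HLA-DRA had 2 counts at D16 and 0 at D30. Of 13 class I and peptide loading genes 8 rose, while the chaperones CALR and PDIA3 fell by 1.89 ± 0.16 and 1.77 ± 0.13.

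USB1 was expressed on both days. It read 55.7, 47.2 and 56.2 CPM at D16 and 59.1, 66.1 and 67.1 CPM at D30. The libraries did not overlap but lay close, and the rise of 0.28 ± 0.13 (edgeR adjusted p = 0.0804) passed the threshold of 0.1 and not one of 0.05. The call of USB1 was lost without D16 library 1 or 2 or D30 library 2 or 3 (edgeR adjusted p 0.119 to 0.275), and its exons overlap a gene on the opposite strand. Of the 38 genes of RNA tailing and microRNA work around USB1, 7 rose and 17 fell, with a median of -0.23. TENT4B (PAPD5) and TENT4A (PAPD7), the poly(A) polymerases that tail small RNAs, were not called (22.8 ± 2.81 and 23.7 ± 0.499 CPM, and 40.8 ± 3.23 and 44.6 ± 7.29 CPM), nor were TENT2, TUT1, TUT7 and DICER1.

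LIN28A and LIN28B, which block let-7 processing and are marks of embryonic and fetal cells, fell from 17.1 ± 2.69 to 0.956 ± 0.337 CPM and from 91.3 ± 17.2 to 29.2 ± 2.85 CPM. AGO1, an Argonaute that carries microRNAs, rose from 100 ± 4.53 to 248 ± 28.4 CPM, and AGO3, TNRC6A, DGCR8, DIS3L2 and LSM6 rose by 0.41 to 0.60. DROSHA, the nuclear microRNA processor, fell by 0.75 ± 0.15. LSM6, which rose, belongs to the ring that binds the end of U6 RNA. Of other ring genes, LSM3, LSM5 and LSM7 fell by 1.73 ± 0.18, 1.65 ± 0.19 and 1.17 ± 0.19, LSM8 by 0.68 ± 0.13, and LSM4 was not called. Among genes of fetal growth, HMGA2 and IGF2BP1, which let-7 represses, fell by 2.18 ± 0.35 and 1.06 ± 0.13, IGF2BP3 was not called, and IGF2, a growth factor, rose from 15 ± 7.39 to 50.4 ± 7.41 CPM. With transcript lengths as offsets, the differences of LSM6 (-0.10) and IGF2BP1 (0.05) changed sign and neither was called.

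Iron storage and oxidative stress genes were divided, 10 of 22 having risen and 11 fallen, with a median of -0.28. FTL, the ferritin light chain and among the most abundant transcripts of both days by TPM, read 6386, 6190 and 4980 CPM at D16 and 8575, 7524 and 10905 CPM at D30, and FTH1, the heavy chain, rose from 742 ± 105 to 2755 ± 409 CPM. HMOX1, which breaks down heme, rose by 3.61 ± 0.22, while SLC40A1, the iron exporter ferroportin, fell from 313 ± 42 to 106 ± 34.2 CPM. Of 24 immediate early and NF-kB genes, 11 fell and 4 rose, with a median of -0.22. The early factors FOS, EGR1 and NR4A2 fell by 1.19 ± 0.26, 1.37 ± 0.24 and 3.22 ± 0.26, and JUN was not called.

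Genes that mark endothelial, mesenchymal, lymphoid and pluripotent cells were read as lists. The 30 listed endothelial genes summed to 692 to 827 CPM at D16 and 864 to 1055 CPM at D30. Of the 21 tested, 11 fell and 4 rose. CDH5, the cadherin of endothelial junctions, stayed below 5 CPM in every library. KDR, the VEGF receptor, fell from 46.6 ± 9.98 to 2.68 ± 1.18 CPM, whereas ENG, a TGF-beta co-receptor that macrophages and erythroid precursors also carry, rose from 16.5 ± 2.19 to 383 ± 102 CPM. Of 22 mesenchymal genes, 12 fell and 6 rose. LUM and IGFBP7, a matrix proteoglycan and a secreted binding protein, fell by 4.20 ± 0.45 and 4.36 ± 0.20 (LUM had a log2 fold change of -4.84 without D30 library 3). SPARC, a matrix glycoprotein, rose from 55.6 ± 30.4 to 488 ± 26.1 CPM. Among collagen genes, COL6A1 rose from 2.50 ± 0.483 to 48.7 ± 6.66 CPM, and COL1A1 from 0.731 ± 0.215 to 4.42 ± 0.978 CPM. COL1A2 and COL3A1 were not called, and COL1A1, COL1A2 and COL3A1 stayed below 10 CPM in every library.

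Of 32 lymphoid genes, 18 had too few counts to test, CD3E among them, and 10 of the 14 tested fell. NKG7, a granule protein of cytotoxic cells, fell from 95.4 ± 24.7 to 5.57 ± 3.05 CPM, and IL7R, which myeloid cells can also make, rose from 13.7 ± 3.91 to 69.7 ± 30.8 CPM. Of 10 tested pluripotency genes, 2 rose and 5 fell, and SOX2 was too low to test. NANOG was not called (2.12 ± 0.458 and 2.90 ± 0.283 CPM), but with transcript lengths as offsets its log2 fold change turned from 0.45 to -1.63 and it was called as a fall (edgeR adjusted p = 0.0859). POU5F1 (OCT4) rose from 4.36 ± 0.984 to 11.9 ± 1.55 CPM, DNMT3B, the embryonic DNA methyltransferase, fell by 4.95 ± 0.35, and POU5F1 shares sequence with expressed pseudogenes, so that its count is uncertain.

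The 20 largest rises and 20 largest falls also held genes outside the lists, some of which are given here. FCGBP, an IgG-binding mucin-like protein, had 1 count over the D16 libraries and 2755 over the D30 libraries, a ratio of 2875 with a counting interval of 516 to 114000. Its D30 libraries read 199, 47 and 14.5 CPM, and without library 1 of D30 the log2 fold change was 9.86, against 11.29. HS3ST2, a heparan sulfate sulfotransferase, also had 1 count at D16, and its ratio was 1935 with an interval of 347 to 76500. SLAMF8, a macrophage surface receptor, rose from 1.15 to 219.8 CPM, FCMR, the IgM receptor, from 0.301 to 93.7 CPM, and FAM20C, a secretory pathway kinase, from 2.94 to 529 CPM. Among the falls, AREG, the growth factor amphiregulin, went from 100.4 to 0.534 CPM, TMEM97, a sterol-related membrane protein, from 183 to 5.16 CPM, and CYP11A1, which starts steroid synthesis, from 50.3 to 1.35 CPM.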

How the data were processed

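RNA lysed in Trizol was depleted of ribosomal RNA, made into libraries with the NextFlex Rapid Directional kit and sequenced as paired ends. Per the submitters' notes and the methods, the authors trimmed reads with Trimmomatic and quantified them with Salmon against Ensembl GRCh38 transcripts, and the deposited tables hold estimated counts per gene, TPM computed by Salmon and an average transcript length. How Salmon's bias options were set is not given in the sources used here.

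The estimated counts of the 3 WT D16 and 3 WT D30 libraries were rounded to whole numbers, genes with low counts were removed with edgeR's default filter, and TMM scaling and the quasi-likelihood test of edgeR 4.0.16 (R 4.3.3) were applied to the 14666 remaining genes. Calls were made where the p-value, adjusted over all tested genes by the method of Benjamini and Hochberg, was below 0.1, and calls that also passed a 2-fold change were counted separately. TPM served only to order levels between genes. The 3 D16 and 3 D30 libraries differ in depth, which limits precision for genes with few counts. Intervals of count ratios are exact, at 95%, and cover counting error only. Copies that share sequence (globin pairs, HLA, IFITM, FCGR, S100 and other families) were not resolved.

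The gene lists, their members and the rule for named genes were chosen with earlier results of these data known. The rule took USB1, CD34, PTPRC, KIT and GATA2, the 20 largest called rises and falls at a mean of at least 20 CPM, the first, most changed, most abundant and most abundant uncalled members of each list, all members of the receptor and USB1 lists, and the most abundant genes by TPM. It also took genes that spell out a count of 5 or fewer. Further genes in the text and figures were picked for their role after their values were seen. Promoter windows and sequences are from RefSeq (GRCh38.p14), and a motif match is a description, not a binding site. Where a gene had several windows, the first listed was used. Positions before a start refer to the RefSeq start site. By the GENCODE 44 annotation, the stretches of CD68 and CTSD lie inside the gene span, and that of IFIT1 does in part.

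The script was tested on simulated counts before use. Alternatives were RLE scaling, scaling without the most abundant genes, filters on counts, DESeq2 1.42.0, limma-voom 3.58.1, a fit over all 18 libraries, transcript lengths as offsets, a threshold of 0.05, a replicate block and each library left out. The sterol and interferon motifs were added after the data were seen. Some genes are not reported here.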

Additional observations from a re-analysis of the deposited data

How the results depend on the processing

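Of 458 named genes, 373 were called, and 343 of these kept their call and direction in all alternatives that could be fitted. The number of genes called was 9346 to 10086 with 1 library left out, 9911 with DESeq2, 10449 with limma-voom and 9443 with transcript lengths as offsets, against 10291. With no count filter 11208 genes were called and with all 18 libraries 11228, both from more genes tested. A test against a 2-fold change, a stricter question, gave 2037 genes that rose over 2-fold and 1895 genes that fell over 2-fold, against 2921 and 2639. With transcript lengths as offsets the log2 fold change changed sign for AGO2 (0.782), IGF2BP1 (0.047), LSM6 (-0.102), NANOG (-1.628) and XPO5 (0.152). AGO2 was then called as a rise and NANOG as a fall, and the cause was not tested. With 1 library left out, COL3A1 ran from -1.926 (without WT D30 replicate 3) to 1.495 and FCER1A from -1.235 (without WT D30 replicate 1) to 0.648. The replicate block gave 9625 calls. Deviations of same-numbered D16 and D30 libraries correlated at -0.127, -0.106 and -0.111, so the numbers were not taken to pair the samples. Leaving out 1 library also moved the fold by over 1.5 times for called genes with low levels on one day, among them AHSP, CD177, ELANE, MMP8, MYCN, PF4, PPBP, PRSS57 and TREM2. Low counts limit genes near the floor, such as those with 1 to 3 counts in a day.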
